A study of Austrofundulus limnaeus and Nothobranchius furzeri and Aphyosemion australe with 30 samples.

Results

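Chromatin accessibility of actively developing turquoise killifish embryos (Dev) was set against that of embryos just before diapause (Pre-Dia), in 4 of the 30 libraries of the series: 2 Dev and 2 Pre-Dia libraries, chosen by their labels. All 60359 consensus peaks of the turquoise killifish table were compared, and no peak was selected by its level. The series is an ATAC-seq study of killifish species with and without diapause, in which an enzyme cuts and tags open chromatin and the reads in a peak measure how open it is. Dev embryos had a heart rate above 60 beats per minute by their sample label (the growth protocol gives a lower bound) and were taken about a day after heartbeat onset, before pigment appeared in the eyes. Pre-Dia embryos still had a Kupffer's vesicle and 15 to 22 somites by their label. The same table holds 2 libraries of diapause day 6 (Dia 6d) and 3 of diapause month 1 (Dia 1m), which entered the fit as further groups. All were wild-type, untreated embryos of the GRZ strain, dissected out of yolk and chorion and pooled at about 10 embryos and 25000 nuclei per library. The Pre-Dia embryos came from young parents whose offspring mostly skip diapause, so that the Pre-Dia libraries hold embryos on the path to development as well as any bound for diapause, and no library was sorted by cell type.

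Kupffer's vesicle is a ciliated organ of the fish embryo that sets left and right and is lost near the end of somite formation. Embryos of annual killifish that have passed this stage and started their heartbeat either go on to build organs or enter diapause, a reversible arrest with low heart rate that lets embryos outlast the dry season. Enhancers and promoters open and close as cell types form, so that a peak that differs between Dev and Pre-Dia may differ in each cell or in the share of cells that use it; in whole embryos these cannot be told apart. Peaks were not placed on genes and their sequences were not analysed here, so each is given by its name in the table and its position on the Nfu_20140520 assembly.

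The values are reads per peak divided by 1 factor per library, called normalized reads below. Reads in peaks came to 6.24 M and 5.18 M in the Dev libraries, against 3.05 M and 2.26 M in the Pre-Dia libraries, so both Dev libraries were deeper than both Pre-Dia libraries. Mean depth was 5.71 ± 0.748 M in Dev and 2.65 ± 0.560 M in Pre-Dia (SD, n = 2 each; exact permutation test, two-sided, p = 0.333, the smallest p that 2 against 2 allows). Depth and stage cannot be told apart in these libraries. A peak held a median of 56 and 48 reads in Dev, against 30 and 23 reads in Pre-Dia. The diapause libraries held 3.22 M to 3.94 M reads in peaks.

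The typical peak differed more between a Dev and a Pre-Dia library than between the replicates of either stage. Over all 60359 peaks the median log2 difference, Dev minus Pre-Dia, was -0.01, with quartiles at -0.47 and 0.49. The difference exceeded 1 on the log2 scale in 4668 peaks and was under -1 in 3573 peaks. Libraries of 1 stage differed from each other by a median of 0.35 log2 units in Dev and 0.39 in Pre-Dia, while a Dev and a Pre-Dia library differed by a median of 0.54; the Dia 1m replicates differed among themselves by nearly as much, 0.52. Both Dev libraries lay above both Pre-Dia libraries in 17088 peaks (28.3% of peaks) and below them in 16180 peaks (26.8% of peaks). Across peaks, the log2 values of the Dev libraries had a Pearson r of 0.908 with each other and the Pre-Dia libraries one of 0.837, while the 4 Dev to Pre-Dia pairs ranged from 0.747 to 0.844, so that Dev replicate 2 and Pre-Dia replicate 1 were as close as the Pre-Dia replicates; peaks are not independent replicates, and these are descriptions.

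**Figure D1:**
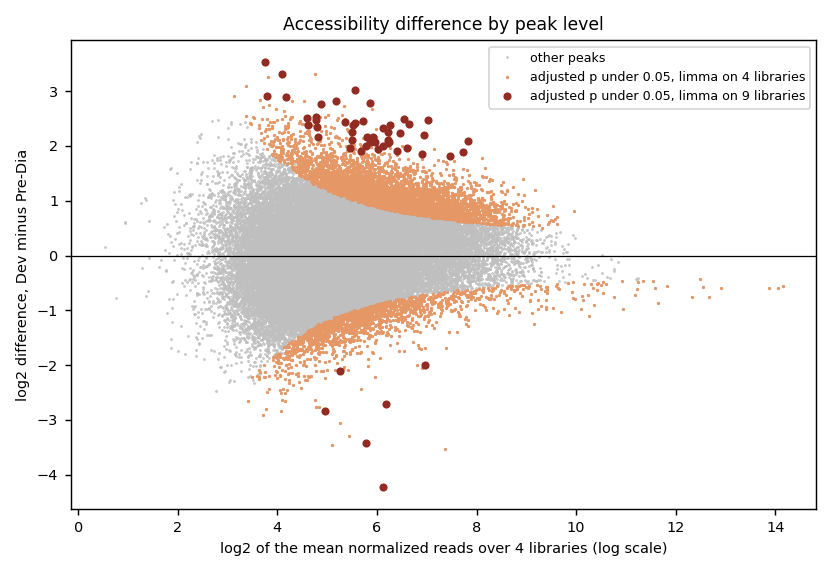
Each point is 1 consensus peak, with the log2 of its mean normalized reads over the 2 Dev and 2 Pre-Dia libraries on the x axis and the log2 difference, Dev minus Pre-Dia, on the y axis. Dark points are the 52 peaks past the threshold with all 9 libraries in the fit, 46 of them above 0, and orange points those past it when the 4 libraries were fitted alone.

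With the spread estimated over all 9 turquoise killifish libraries, 46 peaks were higher in Dev and 6 were lower (limma on log2(value + 1), Benjamini-Hochberg adjusted p under 0.05), which is 0.0762% and 0.00994% of the peaks tested. The higher peaks had log2 differences of 1.82 to 3.54 with a median of 2.25, against a median of -0.01 over all peaks. The 6 lower peaks ranged from -4.23 to -2.00 with a median of -2.77. In all 52, both Dev libraries lay on the same side of both Pre-Dia libraries, which the choice of these peaks favoured. Over all peaks, both Dev libraries lay above both Pre-Dia libraries in 28.3% and below them in 26.8%. The median level of the higher peaks was 92.8 normalized reads over the Dev libraries, against 21.3 over the Pre-Dia libraries, and that of the lower peaks was 11.0 over Dev, against 111 over Pre-Dia.

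The size of these lists depended on which libraries entered the fit, on the method and on depth. The adjusted p-values of the 52 peaks lay between 0.0387 and 0.0499 by limma on 9 libraries, close under the threshold. When the 2 Dev and 2 Pre-Dia libraries were fitted alone, limma called 4398 peaks higher (7.29%) and 1712 lower (2.84%), and these included all 52. The SD between replicates, as a root mean square over peaks on the log2 scale, was 0.40 in Dev, 0.50 in Pre-Dia, 0.45 in Dia 6d and 0.65 in Dia 1m, so the Dia 1m libraries spread most. Without Dia 1m replicate 3 the 9-library fit gave 3568 calls, and without Dia 1m replicate 2 it gave 2069; each included all 52. Without Pre-Dia replicate 1 it gave 107 calls, which included 12 of the 46 higher and 3 of the 6 lower peaks, and without Dev replicate 2 it gave 1 call, among the 6 lower peaks. It gave 0 calls by limma without Dev replicate 1, Pre-Dia replicate 2, Dia 6d replicate 1, Dia 6d replicate 2 or Dia 1m replicate 1, where 2595, 4498, 7298, 7329 and 7559 peaks had an unadjusted p under 0.05, in that order. With all 9 libraries, edgeR called 76 peaks and DESeq2 called 580. Once reads were thinned to the depth of the shallowest library, 2 higher peaks and no lower peak were past the threshold by limma, and 10 random draws of the thinned reads gave 0 to 24 calls with a median of 1.

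A wider list was therefore taken from the 4 libraries alone: peaks past the threshold in the same direction by limma, by edgeR and by DESeq2, the last 2 on whole reads recovered from the values. It held 1906 peaks higher in Dev (3.16% of peaks) and 611 lower in Dev (1.01% of peaks), and 34 of the 46 higher and 3 of the 6 lower peaks above were among them. DESeq2 alone called 1906 higher and 615 lower peaks on these 4 libraries, so it set the list almost by itself. The median log2 difference was 1.15 in the higher and -1.10 in the lower peaks of this list. Nothing in the labels says that the replicates came from separate clutches, so these p-values measure the spread between these libraries only.

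**Figure D2:**
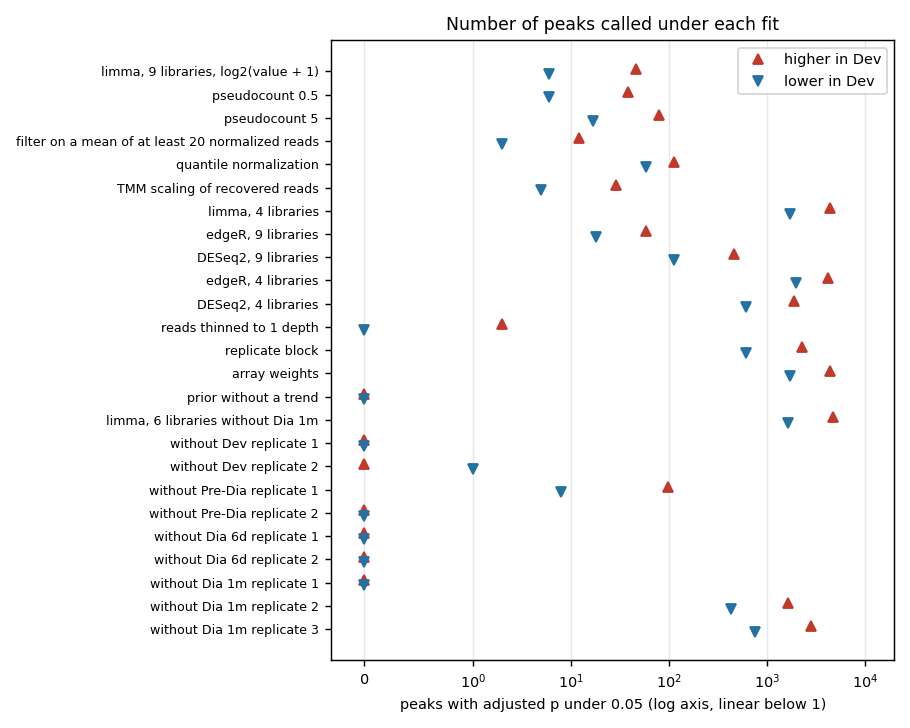
The number of peaks with an adjusted p under 0.05, higher (red) or lower (blue) in Dev, for each fit on the y axis; the x axis is logarithmic above 1. Counts ran from 0 calls in 6 fits to 6332 calls (4699 higher and 1633 lower) with the Dia 1m libraries left out.

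Among the 46 higher peaks, the diapause libraries fell into 2 broad patterns. In 23 peaks all 5 diapause libraries lay above both Pre-Dia libraries, and at least 1 of them reached the lower Dev library. In 14 peaks all 5 lay below both Dev libraries, and at least 1 of them reached the higher Pre-Dia library. In 8 they lay wholly between the stages, and in 1 they did neither. Counting these 8 on both sides, all 5 lay above both Pre-Dia libraries in 31 of the 46 (67.4%) and below both Dev libraries in 22 (47.8%). Over all peaks with a positive difference the shares were 21.7% and 22.4%. The choice of the 46 by a large difference favoured both. The median Dia 6d minus Dev difference was 0.02 log2 units in the 23 and -1.46 in the 14, and the Dia 6d minus Pre-Dia difference 2.19 in the 23 and 0.94 in the 14. The peaks were chosen on the Dev and Pre-Dia values and sorted into patterns by the diapause values, so these shares and differences are descriptions. A single diapause library could decide the pattern of a peak. The same fit across all peaks called 29 of the 46 higher in Dia 6d than in Pre-Dia (2.84% of all peaks passed that test) and 23 higher in Dia 1m than in Pre-Dia (4.72% of all peaks). It called 5 of the 46 lower in Dia 6d than in Dev (0.28% of all peaks) and 18 lower in Dia 1m than in Dev (4.48% of all peaks). These tests, and those of single peaks below, reuse the Dev and Pre-Dia libraries that chose the peaks. Their counts and p-values are descriptions too, and the shares over all peaks carry no such choice.

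**Figure D3:**
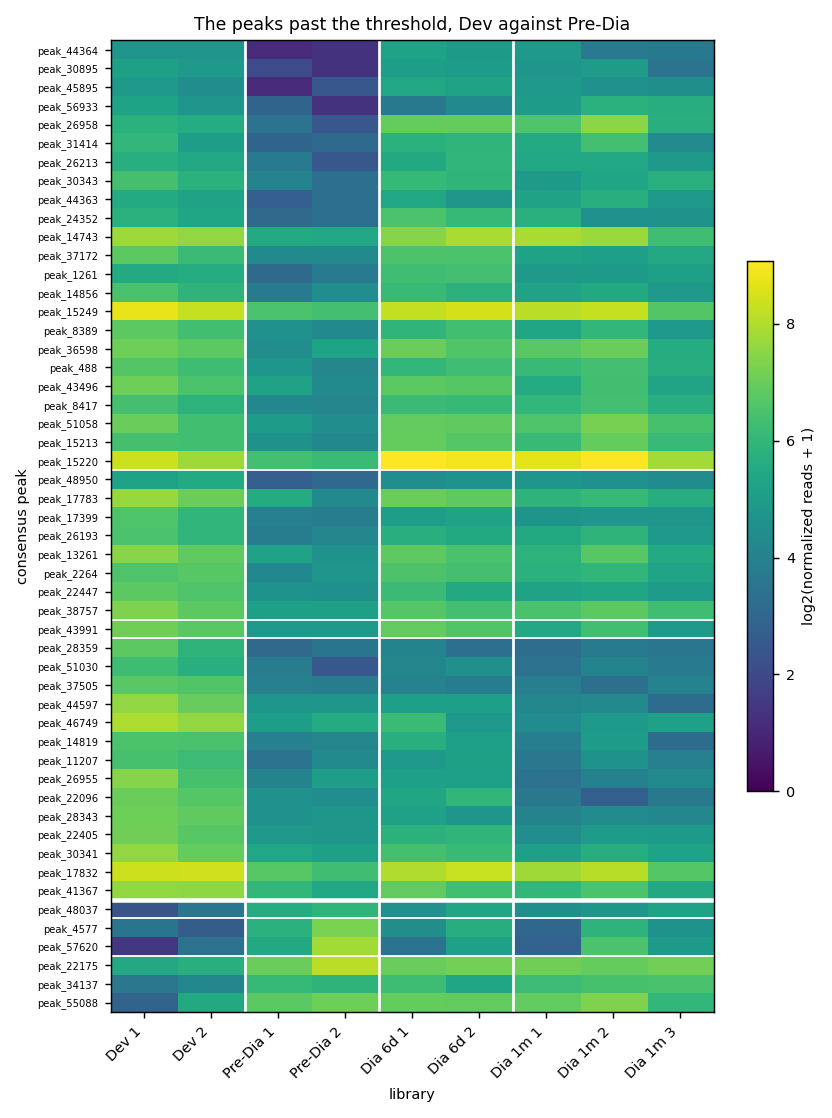
Log2(normalized reads + 1) of the 52 peaks past the threshold in each of the 9 libraries, with the peaks higher in Dev above the thick line. Thin lines separate the classes of higher peaks. In the top 23, all diapause libraries lay above both Pre-Dia libraries and at least 1 reached Dev. Below these are peaks with all diapause libraries between the stages (8) and with neither (1). In the last 14, all lay below both Dev libraries and at least 1 reached Pre-Dia. Below the thick line is the same split of the 6 lower peaks, with directions reversed.

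The largest increase was at peak_44364 (NC_029665.1:26845740-26845956, 217 bp wide). It belongs to the first of the patterns above, with all diapause libraries above both Pre-Dia libraries. It had 25.8 and 25.5 normalized reads in Dev, against 1.1 and 1.5 in Pre-Dia. The Pre-Dia values stand for 1 read in each library, the Dev values for 44 and 38 reads. The ratio of Dev to Pre-Dia was 20.1, with an exact binomial 95% interval of 5.40 to 169 that covers counting error only, and the log2 difference was 3.54 (SE 0.66, adjusted p = 0.0399 by limma). The Dia 6d libraries had 37.7 and 30.2 normalized reads and the Dia 1m libraries 29.4, 12.7 and 11.7, all above the Pre-Dia libraries. A second peak 9.18 kb away, peak_44363 (NC_029665.1:26836242-26836560), was higher too, with 46.3 and 36.9 normalized reads in Dev, against 5.52 and 9.01 in Pre-Dia. Its diapause libraries ranged from 26.8 to 51.0, so that Dev and diapause overlapped while Pre-Dia lay below both.

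Peak_30895 (NC_029658.1:28725589-28725895) had 34.6 and 28.9 normalized reads in Dev, against 3.3 and 1.5 in Pre-Dia, from 3 and 1 reads. The ratio was 12.5 with a 95% counting interval of 4.75 to 46.9, and all but 1 of the diapause libraries lay at 26.2 to 33.2, the exception being Dia 1m replicate 3 at 9.94. Peak_45895 (NC_029666.1:34312356-34312607) had 29.3 and 20.8 in Dev, against 1.10 and 4.50 in Pre-Dia (1 and 3 reads; ratio 9.95, counting interval 3.74 to 37.4), and 21.7 to 41.3 in the diapause libraries. These 2 peaks were among the 31 of the 46 higher peaks that were lower in Pre-Dia than in each of the other 7 libraries.

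At peak_26958 (NC_029657.1:7063762-7064445) 4 of the 5 diapause libraries lay above both Dev libraries. Dev had 55.1 and 48.3 normalized reads, against 9.94 and 4.50 in Pre-Dia (9 and 3 reads; ratio 6.80, counting interval 3.79 to 13.4). The diapause libraries had 120 and 120 at day 6 and 95.5, 181 and 52.4 at month 1. The Dia 6d minus Pre-Dia difference was 3.96 log2 units (adjusted p = 7.23e-05 by limma), beside 2.76 for Dev minus Pre-Dia (adjusted p = 0.0387); neither the Dia 6d minus Dev difference of 1.2 (adjusted p = 0.247) nor the Dia 1m minus Dev difference of 0.90 (adjusted p = 0.195) was past the threshold. Peak_15220 (NC_029653.1:13271927-13272946), not among the 20 largest increases and named after its values were seen, had 336 and 219 in Dev, against 80.6 and 72.1 in Pre-Dia. Its diapause libraries had 538 and 481 at day 6 and 412, 515 and 226 at month 1, so that Dia 1m replicate 3 lay within the range of Dev, and neither difference from Dev was past the threshold (adjusted p = 0.271 for Dia 6d and 0.474 for Dia 1m by limma).

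The peaks higher in Dev than in every diapause library were led by peak_28359 (NC_029657.1:41516379-41516849). It had 111 and 58.4 normalized reads in Dev, against 7.73 and 10.5 in Pre-Dia, a log2 difference of 3.02 (SE 0.58, adjusted p = 0.0399 by limma). The 5 diapause libraries ranged from 8.39 to 16.1, and the Dia 6d minus Dev difference was -2.64 (adjusted p = 0.0264). Peak_37505 (NC_029661.1:39441658-39442075) had 108 and 96.6 normalized reads in Dev, against 14.4 and 13.5 in Pre-Dia. Its diapause libraries lay between 9.27 and 15.4, around the Pre-Dia level, and Dia 6d minus Dev was -2.75 (adjusted p = 0.00747) while Dia 6d minus Pre-Dia was 0.04.

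Among the named peaks with the second pattern above, peak_46749 and peak_44597 had the highest Dev means. Peak_44597 (NC_029665.1:32337652-32338243) had 196 and 123 normalized reads in Dev, against 26.5 and 27.0 in Pre-Dia, and 8.13 to 34.1 in the diapause libraries. Peak_46749 (NC_029667.1:19964681-19965318) had 248 and 194 in Dev, against 32.0 and 46.5 in Pre-Dia, and 19.9 to 71.8 in diapause. For both, Dia 6d and Dia 1m were lower than Dev past the threshold (Dia 6d minus Dev -2.16 and -2.26 log2 units, adjusted p = 0.0188 and 0.0108 by limma on 9 libraries). The fifth peak lower in Dia 6d than in Dev was peak_28343 (NC_029657.1:41171849-41172247), 344 kb from peak_28359, with 135 and 114 in Dev, 23.2 and 27.0 in Pre-Dia and 15.7 to 35.9 in diapause; it lies outside the 20 largest increases and was named after its values were seen.

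The other named peaks with the second pattern were peak_51030, peak_14819, peak_11207 and peak_26955, whose Dev libraries lay between 50.3 and 173 normalized reads and whose Pre-Dia libraries lay between 4.50 and 33.0. Their diapause libraries ranged from 8.13 to 51.1. For each of the 4 the Dia 1m minus Dev difference was past the threshold (adjusted p from 0.000118 to 0.00909 by limma), while Dia 6d minus Dev was not (0.0723 to 0.365). Whether the Dia 1m and Dia 6d differences from Dev differ from each other was not tested. Peak_26955 lies 39.7 kb from peak_26958, so neighbouring peaks that were both higher in Dev differed in diapause: 9.44 to 34.1 normalized reads at peak_26955 and 52.4 to 181 at peak_26958.

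Of the remaining named increases, peak_31414, peak_26213, peak_30343 and peak_56933 were above Pre-Dia in every diapause library. Peak_56933 was the only one of these 4 in which Dia 6d lay below Dev in both libraries, at 11.7 and 19.0 normalized reads in Dia 6d against 37.5 and 26.2 in Dev, while its Dia 1m libraries had 31.5, 54.4 and 48.8. Peak_48950, peak_17399 and peak_17783 lay between the stages in all diapause libraries. Peak_17783 (NC_029654.1:1383356-1383904) had 203 and 132 normalized reads in Dev, against 46.4 and 19.5 in Pre-Dia, and 49.7 to 128 in diapause. It was past the threshold in 14 of the 15 alternative fits other than those that left out 1 library. Some of these 15 used no diapause library or no Dia 1m library. Of the 9 fits that left out 1 library, it was past the threshold in 3. Like every peak, it was not past it in those that gave no calls. Among these was the fit without Dia 1m replicate 1 (adjusted p = 0.0807 by limma). The fit without Dev replicate 2 also lost it.

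The 6 peaks lower in Dev were fewer and less even. At peak_22175 (NC_029655.1:23705704-23706190) Dev had 43.4 and 50.3 normalized reads, against 127 and 282 in Pre-Dia, a log2 difference of -2.00 (SE 0.37, adjusted p = 0.0387 by limma), and the 5 diapause libraries lay between 122 and 144. At peak_34137 (NC_029659.1:47998946-47999122) Dev had 11.1 and 16.8, against 66.3 and 58.6 in Pre-Dia, and diapause had 39.1 to 87.7. At peak_55088 (NW_015445789.1:23885-24226) Dev had 6.44 and 44.3, against 108 and 132 in Pre-Dia, and diapause had 64.2 to 159. These 3 were low in Dev alone: Dia 6d was higher than Dev by 1.51, 1.92 and 2.71 log2 units (adjusted p = 0.0432, 0.0204 and 0.0108 by limma). The peaks were chosen on the difference of Dev from Pre-Dia and the test reuses the Dev libraries, so these p-values are descriptions. The Dev libraries of peak_55088 disagreed, and it was not past the threshold by DESeq2 on 4 libraries (adjusted p = 0.195).

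The 2 largest decreases rested on Pre-Dia libraries that disagreed. Peak_57620 (NW_015448366.1:18372-18606) had 1.76 and 9.39 normalized reads in Dev, against 44.2 and 222 in Pre-Dia, and 6.30 to 89.2 in diapause. Peak_4577 (NC_029650.1:3360975-3361234) had 10.5 and 5.37 in Dev, against 55.2 and 150 in Pre-Dia, and 7.35 to 57.9 in diapause. In both peaks Pre-Dia replicate 2 was well above Pre-Dia replicate 1, and the diapause libraries overlapped the Dev libraries at one end and the lower Pre-Dia library at the other. The sixth, peak_48037 (NW_015443730.1:27458-27854), had 4.10 and 10.7 in Dev, against 48.6 and 60.1 in Pre-Dia, with all 5 diapause libraries between, at 22.0 to 39.1.

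In the wider list, the median Dia 6d levels lay between those of the stages. The list was chosen on the Dev and Pre-Dia values, so these levels are descriptions. All diapause libraries lay wholly between the stages in 72 of the 1906 higher peaks and 23 of the 611 lower peaks. Over all peaks, this held in 170 of the 29989 with a positive difference and 115 of the 30370 with a negative difference. Over the 1906 higher peaks the median level was 172 and 136 normalized reads in the Dev libraries, against 71.8 and 66.1 in the Pre-Dia libraries. It was 126 and 126 in Dia 6d and 103, 144 and 73.7 in Dia 1m, so Dia 6d lay nearer to Dev and the Dia 1m libraries ran from the Pre-Dia level to the Dev level. The Dia 6d mean was nearer to Dev than to Pre-Dia in 72.2% of the higher peaks and the Dia 1m mean in 51.5%. Over all peaks with a positive difference these shares were 57.5% and 50.2%. Over the 611 lower peaks the median level was 55.1 and 65.8 in Dev, against 126 and 137 in Pre-Dia, with 79.0 and 82.7 in Dia 6d and 82.2 to 89.2 in Dia 1m. The Dia 6d mean was nearer to Dev in 57.1% of these and in 58.1% of all peaks with a negative difference.

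**Figure D4:**
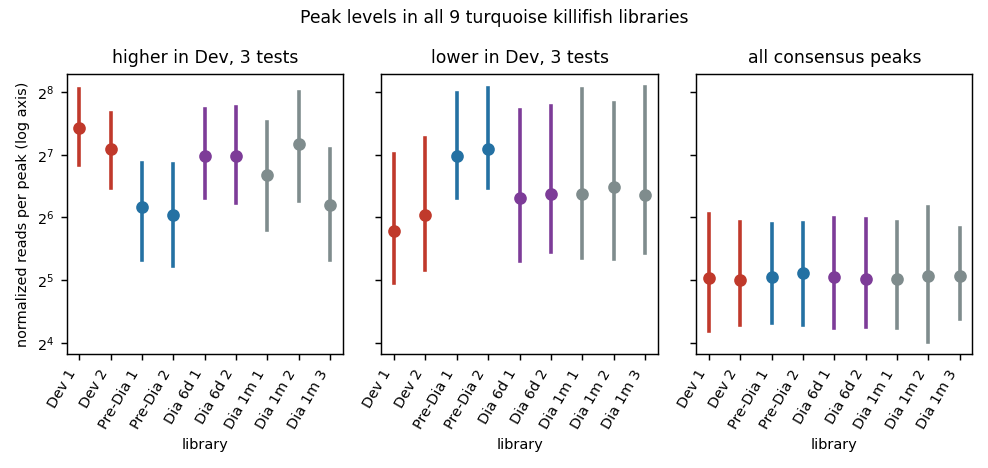
Median (point) and quartiles (line) of the normalized reads per peak in each library, on a log axis, for the 1906 peaks higher and the 611 peaks lower in Dev by limma, edgeR and DESeq2 on 4 libraries and for all 60359 peaks. In the higher peaks Dia 6d has medians of 126 and 126, between Dev (172 and 136) and Pre-Dia (71.8 and 66.1).

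Peaks of the wider list were wider and more open than the average peak, which the choice of the list favoured. DESeq2 on 4 libraries kept an adjusted p for 25252 peaks only, and no peak under a mean of 20 normalized reads was in the list. Median width was 691 bp in the 1906 higher peaks and 594 bp in the 611 lower peaks, beside 421 bp over all peaks. In the 46 higher peaks of the 9-library fit, which had no filter, it was 448 bp. The median log2 difference was 0.21 in the 3410 peaks over 1000 bp, and all 4 pairs of a Dev and a Pre-Dia library gave a median between 0.12 and 0.28. It was -0.11 in the 9216 peaks of up to 250 bp, with 4 pairs between -0.14 and -0.08. By level, it was 0.24 in the 3548 peaks over 160 normalized reads and -0.13 in the 21886 peaks of 20 to 40. After quantile normalization the medians were 0.02 over 1000 bp and 0.04 over 160 normalized reads. Of the peaks over 1000 bp, 11.4% were in the higher list and 2.49% in the lower list, beside 3.16% and 1.01% of all peaks; deeper and more open peaks also give the tests more reads. The median log2 level of peaks over 1000 bp minus that of peaks up to 250 bp was 3.30 and 3.12 in Dev, against 2.79 and 2.82 in Pre-Dia, with 2.92 and 2.91 in Dia 6d and 2.77 to 3.33 among the Dia 1m libraries. The part of library quality in this contrast was not tested.

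The highest peaks went the other way. Of the 55 peaks with a mean over 1000 normalized reads, a class taken after the plot of level against difference had been seen, 53 had a negative difference, with a median of -0.52, and in 52 both Dev libraries lay below both Pre-Dia libraries. The latter held in 26.8% of all peaks and in 22.0% of peaks over 160 normalized reads. None of the 55 was past the threshold with 9 libraries (lowest adjusted p = 0.202 by limma). The lower list of 611 included 34 of them, beside 1.01% of all peaks and 5.38% of peaks over 160 normalized reads. The 55 peaks took 3.30% and 4.06% of the reads in peaks in Dev, against 5.15% and 6.23% in Pre-Dia. They took 4.34% and 5.15% in Dia 6d and 4.02% to 8.87% in Dia 1m. In 28 of the 55 the peak lay on an unplaced scaffold, beside 22.2% of all peaks. The part of the scaffolds in this difference was not tested.

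Differences were not spread evenly over the genome. The assembly has 19 chromosomes with peaks, and 13408 peaks (22.2%) lay on 3298 unplaced scaffolds. The median log2 difference was -0.28 on the unplaced scaffolds, with the 4 library pairs between -0.34 and -0.18. It was 0.34 on NC_029661.1 (1659 peaks, pairs between 0.22 and 0.38) and -0.09 on NC_029649.1 (4456 peaks, pairs between -0.10 and -0.06), the highest and lowest of the chromosomes. Both Dev libraries lay below both Pre-Dia libraries in 38.9% of scaffold peaks and above them in 14.7%, beside 26.8% and 28.3% of all peaks. Unplaced scaffolds held 248 of the 611 lower peaks (40.6%) and 156 of the 1906 higher peaks (8.18%).

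The scaffold contrast varied more among the Dia 1m replicates than between the stages, while the Dia 6d replicates were close to each other. The median log2 level of scaffold peaks minus that of chromosome peaks was -0.43 and -0.21 in the Dev libraries, against 0.05 and 0.00 in the Pre-Dia libraries. The same difference was -0.24 and -0.20 in the Dia 6d libraries and 0.00, -0.37 and 0.32 in the 3 Dia 1m libraries. Unplaced scaffolds took 21.4% and 23.7% of the reads in peaks in Dev, against 26.7% and 27.0% in Pre-Dia. They took 23.0% and 23.7% in Dia 6d and 23.0% to 30.3% in Dia 1m. Likewise NC_029661.1 stood above NC_029649.1 by 0.42 and 0.28 in Dev, against -0.09 and -0.06 in Pre-Dia, with 0.15 and 0.15 in Dia 6d and a range from -0.20 to 0.29 in Dia 1m; this pair of chromosomes was chosen after its values were seen.

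**Figure D5:**
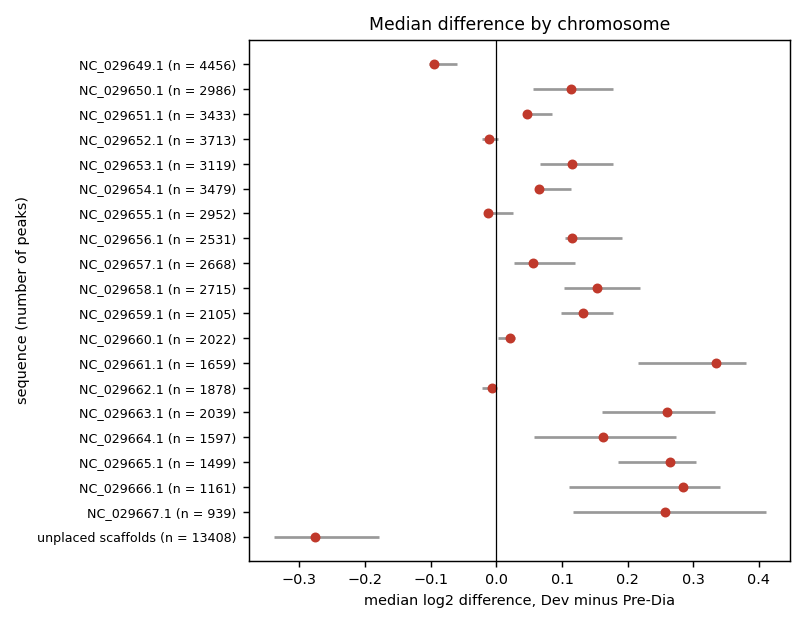
Median log2 difference, Dev minus Pre-Dia, of the peaks on each of the 19 chromosomes and on the unplaced scaffolds (points), with the range of the median over the 4 pairs of a Dev and a Pre-Dia library (lines). Medians run from -0.28 on the scaffolds to 0.34 on NC_029661.1.

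Neighbouring peaks tended to differ in the same direction. Of 7247 pairs of adjacent peaks up to 1 kb apart, 70.4% had differences of the same sign, with a Pearson r of 0.51 across pairs, and of 1644 pairs over 100 kb apart 57.0% did, with an r of 0.18. The difference between the Dev replicates was itself shared by neighbours up to 1 kb apart (r = 0.28), and that between the Pre-Dia replicates less so (r = 0.07); adjacent peaks share libraries and chromosome, so these are descriptions. Of the 78 peaks next to one of the 46 higher peaks and within 20 kb of it, 68 (87.2%) had a positive difference, with a median of 0.95, beside 51.1% and a median of 0.02 for adjacent peaks over the whole table. Next to the 6 lower peaks, 2 of 7 were positive. Of the 52 called peaks, 8 had another called peak within 100 kb, in 4 pairs that were all higher in Dev: peak_44363 and peak_44364, peak_26955 and peak_26958, peak_30341 and peak_30343, and peak_15213 and peak_15220.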

How the data were processed

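Whole embryos of turquoise killifish were profiled by ATAC-seq. The deposited values are a signal: the authors trimmed reads with Trim Galore 0.4.1, aligned them with Bowtie2 2.2.5 to Nfu_20140520, filtered them with Picard 2.22.1 and SAMtools 1.5, shifted them with deepTools 3.2.1, called peaks with MACS2 2.1.1.20160309 and merged them; the tool that counted reads is not given in the sources used here. The table is named for RPKM, but its values are whole multiples of 1 factor per library and are not divided by width. Dividing by that factor gave whole reads for 100% of values (tolerance 0.01 read). The study's methods call some libraries over-transposed; which of them was not used here. No column was left unmapped. The deposited peak widths were used for the width classes.

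log2(value + 1) was fitted with limma 3.58.1 (R 4.3.3; 9 libraries, 4 groups, trended prior, no filter, Benjamini-Hochberg over 60359 peaks, threshold 0.05). Recovered reads were tested with the quasi-likelihood test of edgeR 4.0.16 and with DESeq2 1.42.0. Alternatives were pseudocounts of 0.5 and 5, a filter at a mean of 20, quantile and TMM scaling, thinning, a replicate block, array weights, an untrended prior, 4 or 6 libraries, and each library left out. Scripts were tested on simulated data. None of the 6 replicate pairs agreed within sampling noise (chi-square of reads over peaks). Of the peaks called, the 20 that rose most and the 10 that fell most (or all, where fewer fell) were named. Members, lists and tests were chosen with earlier results of these data known. Gene lists, peak position on genes, sequences and motifs were not analysed here. Depth, 2.26 M to 6.24 M reads in peaks, sets the precision of each value. Groups came from the sample labels.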

Additional observations from a re-analysis of the deposited data

How the results depend on the processing

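With limma on 9 libraries and log2(value + 1), 52 peaks passed (46 higher, 6 lower). Pseudocount 0.5 gave 44 and TMM scaling 34 (29 higher). A pseudocount of 5 gave 96 (79 higher, 17 lower), a filter at a mean of 20 normalized reads 14 (12 higher, 2 lower), quantile normalization 170 (112 higher, 58 lower), edgeR on 9 libraries 76 (18 lower) and DESeq2 on 9 libraries 580 (467 higher, 113 lower, of 22912 peaks that kept an adjusted p). On 4 libraries limma gave 6110 (4398 higher, 1712 lower), edgeR 6168 (4184 higher, 1984 lower) and DESeq2 2521 (1906 higher, 615 lower). Array weights gave 6072 (4369 higher, 1703 lower), but the fit of the weights stopped before convergence. The fit of 6 libraries without Dia 1m, chosen after seeing the data, gave 6332 (4699 higher, 1633 lower). Thinning the reads to 1 depth gave 2 (2 higher, 0 lower; unadjusted p under 0.05 in 8031; 0 to 24 over 10 draws), and the untrended prior 0 (0 higher, 0 lower; 7430 unadjusted, by limma). Leaving out 1 library gave from 0 to 3568 calls in total, 0 to 2816 higher and 0 to 752 lower. In all 52 called peaks the sign held in every alternative, and none passed the threshold in all of them. Neither outcome is a check of these peaks. Both Dev libraries lay on the same side of both Pre-Dia libraries in all 52, so the sign could hardly change. Some fits gave no calls, so no peak could pass in all of them. Over the 26 named peaks, 334 of 592 refits kept the call and 258 lost it. The share of higher calls was 88.5% with 9 libraries, 72.0% with limma on 4 libraries and 65.9% with quantile normalization. The last scaling also brought the median log2 difference of peaks over 1000 bp to 0.02 and that of peaks over 160 normalized reads to 0.04. Low reads limit the precision of some folds: 8 of the 52 had 3 or fewer reads in a Dev or Pre-Dia library.

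With the replicate number as a replicate block, limma gave 2903 calls (2290 higher, 613 lower), all 52 included. The labels do not say that a number marks a shared clutch. Replicate differences of Dev and Pre-Dia had a correlation of 0.00 across peaks. Dev and Pre-Dia each give a single replicate difference, so this correlation cannot decide whether libraries with the same number share a clutch.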
